A study of Mus musculus with 6 samples.

Results

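Of the 25078 genes in the deposited RNA-seq tables of Hepa1-6 cells, 3 were switched off in the midnolin knockdown cells by a fixed rule: the neuronal cadherin gene Cdh10 and the miRNA genes Mir142 and Mir6353. The rule took the deposited RPKM values (reads per unit of summed exon length and of library depth, scaled by the authors) and selected on them: more than 2 RPKM in both scr libraries and less than 0.3 RPKM in all 3 knockdown libraries. There were 9435 genes over 2 RPKM in both scr libraries, so the members were 0.0318% of those that could have met the rule. These same libraries chose the members, so the difference between scr and knockdown cells is given below as a description and was not tested for them. The opposite pattern, under 0.3 RPKM in both scr libraries and over 2 RPKM in all 3 knockdown libraries, was met by 54 of 12693 genes, or 0.425%.

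Hepa1-6 is an established mouse hepatoma line from the C57/L strain. Parental cells without treatment gave 1 library (wt). The 2 scr control libraries (25-2 and 50-1) came from cells that carried a scramble lentiviral vector, and the 3 knockdown libraries (25-3, 50-2 and 50-5) from cells that carried a lentiviral shRNA against midnolin. Both kinds of transduced cells had been selected with puromycin and then grown out from single cells by limiting dilution, steps that the wt cells had not been through. Because the scr and knockdown cells each descend from single cells, what belongs to a clone and what belongs to the knockdown cannot be told apart for a gene that differs between libraries. The study's text names sh1, sh2 and a scr control in its RNA-seq, and calls them clones where it measures midnolin by RT-qPCR. The labels do not say which library came from which clone, nor what 25 and 50 stand for. Libraries of a group may thus share a clone, n counts libraries, and p-values below measure only the spread between these libraries.

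Cadherins are calcium-dependent cell adhesion proteins that bind each other across the gap between cells and are tied to the actin skeleton by catenins. Cdh10 encodes a type II cadherin best known from the brain. A miRNA gene is transcribed as a long primary transcript, from which a hairpin is cut and then trimmed to mature strands of which one guides silencing through its seed, the bases near its 5′ end. Mir142 is known from blood cells, where it is among the abundant miRNAs. Mir6353 is an intronic hairpin whose function is not well described. The libraries were made from total RNA after ribosomal RNA depletion, a method that is not meant to capture mature miRNAs, so reads on a hairpin can come from its precursor or from the primary transcript around it.

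The hairpins are shown because 2 of the 3 members rest on reads that fell within these few bases. The sequences are from RefSeq on GRCm38.p6, written 5′ to 3′, with the annotated mature strands in capitals. Mir142 lies at chr11:87756864-87756927 on the plus strand and Mir6353 at chr1:84218849-84218961 on the minus strand.
Mir142 hairpin: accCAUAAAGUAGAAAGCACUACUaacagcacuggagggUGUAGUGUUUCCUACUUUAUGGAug
Mir6353 hairpin: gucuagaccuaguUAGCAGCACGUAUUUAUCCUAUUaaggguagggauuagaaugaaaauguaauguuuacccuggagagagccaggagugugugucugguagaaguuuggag

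The mature strands are given next with the seed (bases 2 to 8) in capitals. The sequences of miR-16-5p and miR-15b-5p are added because they share the seed of miR-6353.
mmu-miR-142a-5p: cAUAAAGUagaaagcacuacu
mmu-miR-142a-3p: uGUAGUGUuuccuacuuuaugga
mmu-miR-6353: uAGCAGCAcguauuuauccuauu
mmu-miR-16-5p: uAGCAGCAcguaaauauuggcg
mmu-miR-15b-5p: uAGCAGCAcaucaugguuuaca

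Neither seed of miR-142a was shared with another of the 1738 mature mouse miRNAs in the RefSeq table. The seed of miR-6353, AGCAGCA, was that of the miR-15 and miR-16 family and was shared with 9 other mature sequences from 10 genes. The nearest was miR-16-5p, which equalled miR-6353 over its first 12 bases. All 10 of these genes were in the deposited tables, and 1 of them, Mir15b, was over 2 RPKM in both scr libraries. Mir15b had 6 counts in each scr library, 9 in wt and 4, 1 and 6 in knockdown 25-3, 50-2 and 50-5. Its RPKM of 0.484 in knockdown 50-2 was the lowest of the 6 libraries, and its other knockdown values of 1.98 and 2.83 lay under the scr values of 3.19 and 3.29. Mir15b was not called between the groups (log2 fold change -0.86, standard error 0.737, FDR 0.466 by the edgeR quasi-likelihood test, Benjamini-Hochberg adjusted).

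Total counts per library ran from 25586301 to 33119710. Midn, the gene that the shRNA targets, had 59.6 and 50.8 RPKM in scr 25-2 and 50-1 and 20.3, 21.8 and 22.1 RPKM in the knockdown libraries (log2 fold change -1.38, standard error 0.133, FDR 0.00777 by the edgeR quasi-likelihood test, Benjamini-Hochberg adjusted). Without knockdown 50-2 its FDR was 0.0525. Across the 11577 genes tested in this way, 605 were called lower (5.23%) and 625 higher (5.40%) in knockdown cells. Of 7 hepatoma markers tested, 0 were called in either direction by edgeR (1 each way by DESeq2), with 2 lower without knockdown 25-3 and 2 higher without scr 25-2. All 8 markers summed to 2714 and 4033 RPKM in scr and to 1594, 1602 and 829.6 RPKM in the knockdown libraries, and Alb, which encodes albumin, ran from 20.9 RPKM in knockdown 50-5 to 2804 RPKM in scr 50-1. The eighth marker, H19, was at or under 0.0891 RPKM throughout.

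Cdh10 was the protein-coding member, with 3548 bases of summed exon on chromosome 15 (18818947 to 19014236, plus strand, mm10). Its level was 4.03 RPKM in scr 25-2 and 7.06 RPKM in scr 50-1, from 421 and 714 reads. In the knockdown cells it was 0 RPKM in 25-3, 0.209 RPKM in 50-2 and 0 RPKM in 50-5. The 24 reads of knockdown 50-2 were thus all that this group held, and the gene was low there and undetected in the other 2 libraries. A count of 0 allowed up to 0.0268 RPKM in knockdown 25-3 and 0.0256 RPKM in 50-5, the values of 3 reads. The mean over scr was 5.55 ± 2.14 RPKM (SD, n = 2) and the mean over knockdown 0.0698 ± 0.121 RPKM (SD, n = 3). Summed over libraries and scaled to their depth, scr held 79.2 times as many Cdh10 reads (95% interval 52.9 to 124 for counting error only). Knockdown 50-2 alone was 19.3 times under scr 25-2 and 33.7 times under scr 50-1.

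The RefSeq promoter window of Cdh10, from 250 bases before to 50 after the annotated start (chr15:18820079-18820378, GRCm38.p6, plus strand), was poor in G and C. This RefSeq start lies inside the gene body given above, downstream of where that body begins, so the window describes an internal start. It is described because Cdh10 is the member with a promoter entry, and the 250 bases before that start are printed with each CpG in capitals.
Cdh10 upstream: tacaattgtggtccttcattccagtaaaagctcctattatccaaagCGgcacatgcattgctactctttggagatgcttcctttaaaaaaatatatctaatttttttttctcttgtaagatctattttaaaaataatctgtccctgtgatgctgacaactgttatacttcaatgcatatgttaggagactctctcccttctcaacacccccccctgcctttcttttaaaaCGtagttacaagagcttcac

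The window held 37.7% G and C and 2 CpG, and its ratio of observed to expected CpG was 0.193. Among 9473 promoters of genes over 2 RPKM in both scr libraries this ratio had a median of 0.790, and Cdh10 stood at percentile 4.86. Among all 32851 promoters the median was 0.384 and Cdh10 stood at percentile 27.8. The window was searched on both strands for 7 motifs and held 0 of them. CCAAT was in 37.4% of all promoters of this length and in 38.0% of those of genes over 2 RPKM in both scr libraries. GGGCGG, a site of Sp1 factors, was in 35.7% of all and 65.5% of the latter. TATAAA, the TATA box, was in 13.6% and 6.81%. TGANTCA, a site of AP-1 factors, was in 7.81% and 4.69%, and TGACGTCA, a cAMP response element, was in 1.79% and 3.28%. CAAAGTCCA, a site of HNF4, was in 0.475% and 0.306%, and the HNF1 consensus was in 0.00913% of all and in 0 of the latter. The RefSeq promoter window of Pid1, the gene around Mir6353, had 69.7% G and C, 20 CpG and the same Sp1 motif at 3 places. It lies at the start of Pid1 in the deposited tables, while GENCODE places the gene's start farther upstream, at base 84364180 of chromosome 1.

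Mir142 had no read in any knockdown library. Its 64 bases drew 11 reads in scr 25-2 and 19 reads in scr 50-1, which gave 5.84 and 10.4 RPKM (mean 8.13 ± 3.24 RPKM, SD, n = 2). Every knockdown library stood at 0 reads and 0 RPKM. The rule itself keeps the groups apart. A single read on this short gene was worth 0.472 to 0.495 RPKM in the knockdown libraries, so the limit of 0.3 RPKM could be met there only with 0 reads, and 3 reads would have given 1.42 to 1.48 RPKM. Taken against 3 counts over the whole group in place of 0, Mir142 was 16.7-fold lower in the knockdown libraries. This value leaves out the counting error of the scr reads and is not a lower limit. Among the 9435 genes over 2 RPKM in both scr libraries, Mir142 was the 1 gene with 0 reads in all 3 knockdown libraries.

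The hairpin of Mir142 lies within the body of the lincRNA Mir142hg in the GENCODE annotation (chromosome 11, 87755577 to 87757270, plus strand), outside its exons. Mir142hg was not analysed here. The antisense miRNA gene Mir142b (87756841 to 87756955, minus strand) covers all 64 bases of the hairpin. It had 2 counts in scr 25-2, 1 in scr 50-1 and 0 in the other 4 libraries. Whether strand was used in counting is not given in the sources used here. The deposited counts nonetheless keep the 2 genes apart, with 11, 11 and 19 counts for Mir142 in wt, scr 25-2 and scr 50-1.

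Mir6353 had 1 read or none in the knockdown libraries. The 113 bases of this hairpin drew 12 reads in scr 25-2 and 22 in scr 50-1, or 3.61 and 6.83 RPKM (mean 5.22 ± 2.28 RPKM, SD, n = 2). Knockdown 25-3 had 0 reads, and knockdown 50-2 and 50-5 had 1 read each, or 0.274 and 0.267 RPKM. A single read was worth 0.267 to 0.280 RPKM in these libraries, so the limit of 0.3 RPKM allowed 1 read and not 2. Scaled to depth, scr held 28.5 times as many reads on this hairpin, with a 95% interval for counting error of 7.30 to 245.

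The plot of the members by library sets these reads beside those of Tspoap1 and Pid1, the genes next to Mir142 and around Mir6353. In the members' 3 panels the rule itself sets the knockdown libraries under scr, and in those of Tspoap1 and Pid1 they also lie under wt and scr. Of all 11577 genes tested, 24.5% had all 3 knockdown libraries below both scr libraries.

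**Figure D1:**
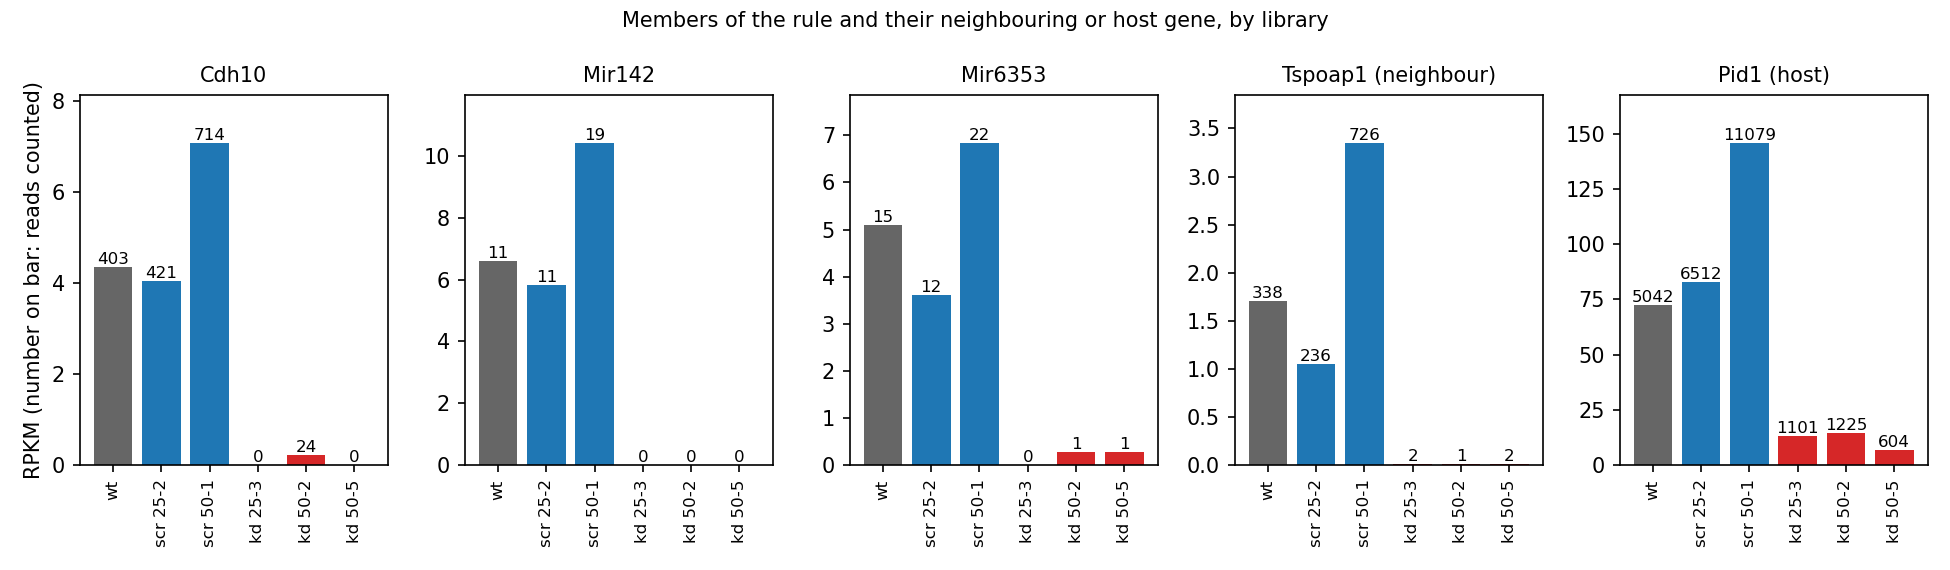
Bars give the RPKM of Cdh10, Mir142, Mir6353 and the adjacent genes Tspoap1 and Pid1 in wt (grey), scr (blue) and knockdown (kd, red) libraries, 1 library a bar, and the number on each bar is its reads. Cdh10 is at 4.36 RPKM in wt, 4.03 and 7.06 in scr and at most 0.209 in knockdown libraries, and the 2 miRNA genes rest on 11 to 22 reads in each library where they are on.

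The parental library was not used by the rule and had all 3 members on. Cdh10 was at 4.36 RPKM in wt (403 reads), Mir142 at 6.59 RPKM (11 reads) and Mir6353 at 5.09 RPKM (15 reads). Each wt value lay between the 2 scr values, and wt was 0.785, 0.811 and 0.975 times the scr mean for Cdh10, Mir142 and Mir6353. Of all genes over 2 RPKM in both scr libraries, 98.8% were over 2 RPKM in wt, 35.6% lay between the scr libraries there and 0.00% were under 0.3 RPKM, so a parental value over 2 RPKM is what nearly every such gene showed. The scr libraries differed among themselves for every member. Scr 50-1 was 1.75 times scr 25-2 for Cdh10, 1.78 times for Mir142 and 1.89 times for Mir6353, where 53.0% of the genes over 2 RPKM in both were higher in scr 50-1 and 12.2% were so by at least 1.5 times. For the hairpins this is a step from 11 to 19 and from 12 to 22 reads.

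The members differed in kind and in the depth behind them. Both hairpin genes were among 69 miRNA genes over 2 RPKM in both scr libraries, which were 0.731% of the 9435, while 96.0% were protein-coding. Under 200 bases of summed exon were 166 of the 9435 genes (1.76%), and under 100 counts in both scr libraries 203 (2.15%). Of the 166 short genes, 2.41% fell under 0.3 RPKM in at least 1 knockdown library, against 0.307% of all 9435. Most miRNA genes did not share the pattern, since 39 of the 69 stayed over 2 RPKM in all 3 knockdown libraries. At most 3 counts in every knockdown library were found for 5 of the 9435 genes, all of them miRNA genes: Mir142, Mir6353, Mir6915, Mir7212 and Mirlet7c-1. Mirlet7c-1, which encodes a let-7 family miRNA, had 13 and 12 counts in scr and 1, 3 and 2 in knockdown libraries, but 2 in wt.

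Genes just outside the limits show how near other genes came to them. By the knockdown limit, the nearest were Krtap5-5 (2.74 and 2.48 RPKM in scr, at most 0.323 in knockdown libraries), 1700016C15Rik (2.54 and 6.80, at most 0.331), Fmo1 (9.47 and 53.1, at most 0.387), Chrnb2 (2.62 and 2.04, at most 0.387) and Depp1 (7.46 and 5.84, at most 0.459). Fmo1 encodes a flavin monooxygenase that oxidises foreign compounds, and its 38.9 RPKM in wt fell between the scr values. By the scr limit, the nearest included Meltf, Meox2, 1700066O22Rik and Dpyd. Meox2, which encodes a homeobox factor, had 2.22 and 1.73 RPKM in scr and at most 0.0402 RPKM in knockdown libraries, but 0.0813 RPKM in wt. Just inside, Mir6353 came within 1 read of the knockdown limit, while the lower scr values of the members, 3.61, 4.03 and 5.84 RPKM, were well over 2.

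**Figure D2:**
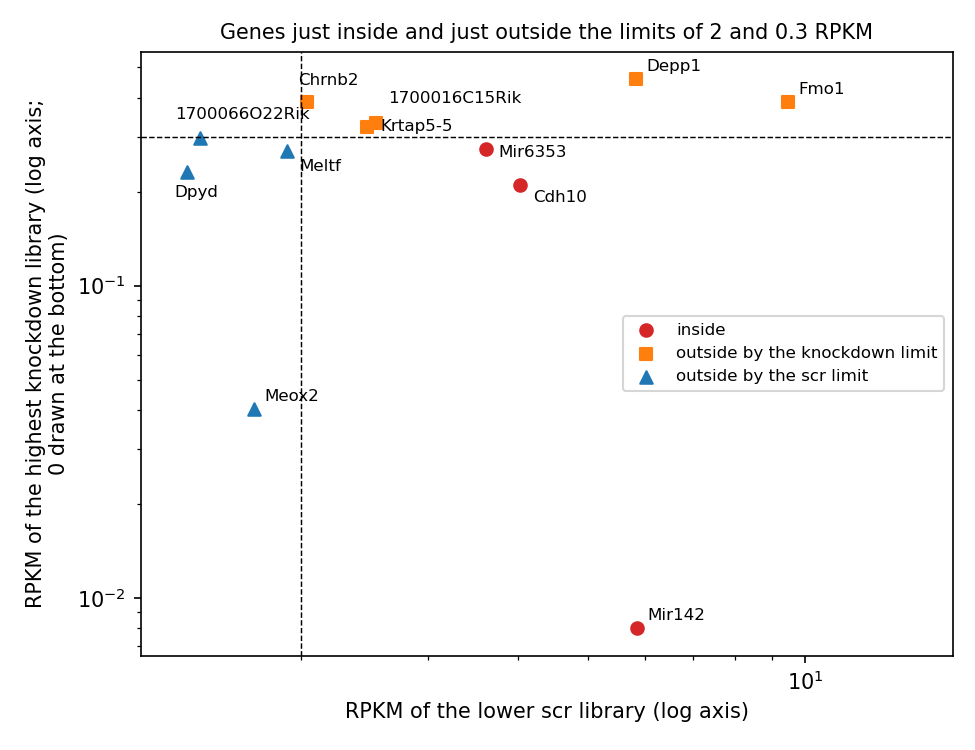
Each point is a gene, with the RPKM of its lower scr library on the horizontal axis and of its highest knockdown library on the vertical axis (both logarithmic, a value of 0 drawn at the bottom), and dashed lines mark the limits of 2 and 0.3 RPKM. The 3 members (circles) lie at the lower right, inside both limits, with Meox2 just left of them and Krtap5-5, 1700016C15Rik, Chrnb2, Depp1 and Fmo1 just above.

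Around Mir142 and Mir6353, adjacent genes that the rule did not choose were examined in the fit across all genes. Within 100 kb of a member there were 10 listed genes, 5 of them tested, and 2 were called lower, Tspoap1 and Pid1, where 5.23% of all tested genes were. These genes share the libraries, and Pid1 also its transcript, with a member, so they do not stand as separate evidence.

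Tspoap1 starts 3614 bases beyond Mir142 on the same strand (chromosome 11, 87760541 to 87785928) and encodes a synaptic protein that binds RIM proteins and calcium channels. It had 1.05 and 3.35 RPKM in scr (236 and 726 reads), 1.70 RPKM in wt and 0.00831, 0.00406 and 0.00794 RPKM in knockdown libraries, which is 2, 1 and 2 reads. The groups did not overlap, as for 24.5% of all genes tested in this direction, and its scr 25-2 value under 2 RPKM kept it out of the rule. Its log2 fold change came to -8.24 (standard error 0.700, FDR 0.00610 by the edgeR quasi-likelihood test, Benjamini-Hochberg adjusted), and scaled read sums stood at 322 to 1 (95% interval 138 to 994 for counting error only). The call held in every alternative fit run, with an FDR of at most 0.0474. On the other side, 1110028F11Rik (-1.59, FDR 0.0526), Rnf43 (-0.95, FDR 0.116) and Supt4a (0.38, FDR 0.196) were not called. Rnf43, which encodes a ubiquitin ligase that limits Wnt receptors, had 18.7 and 26.4 RPKM in scr and 10.2, 8.33 and 16.6 RPKM in knockdown libraries. Of the neighbours that were not tested, Mpo, which encodes the myeloperoxidase of neutrophils, had 45 reads in wt, 4 and 1 in scr and at most 2 in knockdown libraries.

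Pid1 (chromosome 1, 84036293 to 84284645, minus strand) encodes a phosphotyrosine-binding domain protein known from insulin signalling, and the hairpin of Mir6353 lies in one of its introns on the same strand, with 0 bases in its exons. Its level was 83.0 and 146 RPKM in scr, 72.5 RPKM in wt and 13.1, 14.2 and 6.84 RPKM in knockdown libraries. All 3 knockdown values were under both scr values, again as for 24.5% of genes tested, but the gene was still read 604 to 1225 times in each. Its log2 fold change came to -3.34 (standard error 0.386, FDR 0.0102 by the edgeR quasi-likelihood test, Benjamini-Hochberg adjusted). The call was lost without knockdown 25-3 or knockdown 50-2, at an FDR of at most 0.0548, with log2 fold changes of -3.68 to -2.88 over the fits.

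Mir6353 is also given per read of its host, as a description, since the rule itself chose its low knockdown counts. Per 100 reads of Pid1 there were 0.184 and 0.199 reads of Mir6353 in scr, 0.298 in wt and 0, 0.0816 and 0.166 in knockdown libraries. The knockdown values rest on 0, 1 and 1 reads of Mir6353. No such value is given for Mir142, since Tspoap1 held only 5 reads in all knockdown libraries together.

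Farther out, calls were set beside the 10.6% of all tested genes that were called in either direction. Within 1000 kb of Mir142, 21 genes were tested, and Tspoap1 was the 1 called lower and Gdpd1 the 1 called higher, with a median log2 fold change of 0.18. Within 1000 kb of Mir6353, 5 genes were tested and 2 called lower, Pid1 and Dner. Dner, which encodes a neuronal Notch ligand, lies 150878 bases away and had 0.692 and 1.86 RPKM in scr, 1.00 RPKM in wt and 0.0697, 0.153 and 0.0499 RPKM in knockdown libraries (log2 fold change -3.80, FDR 0.0242 by the edgeR quasi-likelihood test, Benjamini-Hochberg adjusted). When any 1 of the knockdown libraries was left out Dner was not called, at an FDR of up to 0.105, and without scr 50-1 it was too low to be tested. Gdpd1 was not called without scr 50-1, knockdown 25-3 or knockdown 50-2, at up to 0.125. Within 5000 kb on each side, 3 of 81 tested genes were called lower and 6 higher around Mir142, and 3 of 51 lower and 3 higher around Mir6353. Around Cdh10 there were 0 other genes of the deposited tables within 100 kb and 2 within 1000 kb, each with at most 2 reads in any library. The lincRNA C030047K22Rik, which GENCODE places just before Cdh10 on the other strand (18697684 to 18818774), was not analysed here.

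**Figure D3:**
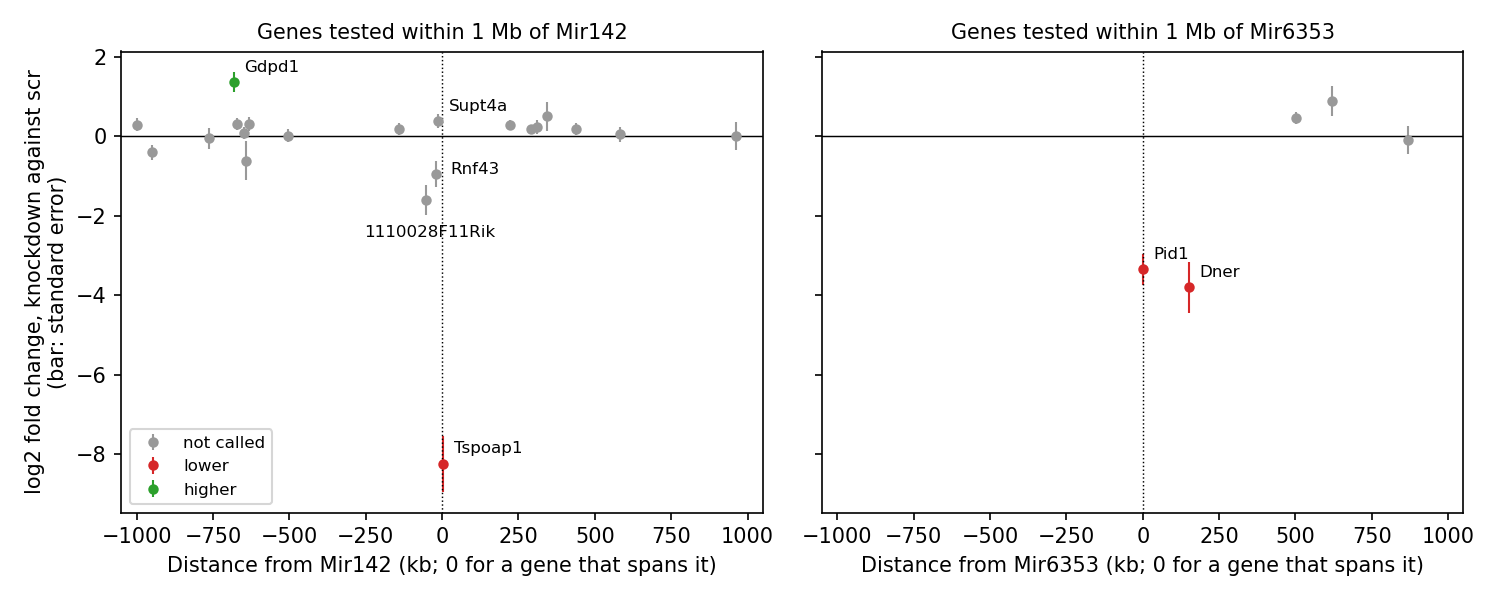
Points give the log2 fold change between knockdown and scr libraries, with its standard error, of the 21 genes tested within 1000 kb of Mir142 (left) and the 5 within 1000 kb of Mir6353 (right), against the distance in kb. Beside Mir142, Tspoap1 stands at -8.24, with 1110028F11Rik at -1.59 and Rnf43 at -0.95 on its other side, and Pid1 and Dner at -3.34 and -3.80 stand at and beside Mir6353.

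How often single libraries differed by such a switch was counted for every pair of libraries. Genes over 2 RPKM in one scr library and under 0.3 RPKM in the other numbered 40 (on in 25-2) and 41 (on in 50-1). From scr 25-2 to single knockdown libraries there were 27, 30 and 39, and from scr 50-1 there were 57, 69 and 72. Between knockdown libraries the counts were 2 to 10, and from wt to the scr libraries 30 and 28. Cdh10, Mir142 and Mir6353 were the genes left when both scr libraries had to be on. With scr 25-2 alone on and all 3 knockdown libraries under 0.3 RPKM there were 13 genes, and with scr 50-1 alone 42. Of the 10 that scr 25-2 added to the members, 4 were under 0.3 RPKM in scr 50-1 and 3 were over 2 RPKM in wt. Of the 39 that scr 50-1 added, 20 were under 0.3 RPKM in scr 25-2 and 15 were over 2 RPKM in wt. Gulo, which encodes the last enzyme of vitamin C synthesis, was such a gene, with 40.8 RPKM in scr 50-1 and 0 in scr 25-2.

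**Figure D4:**
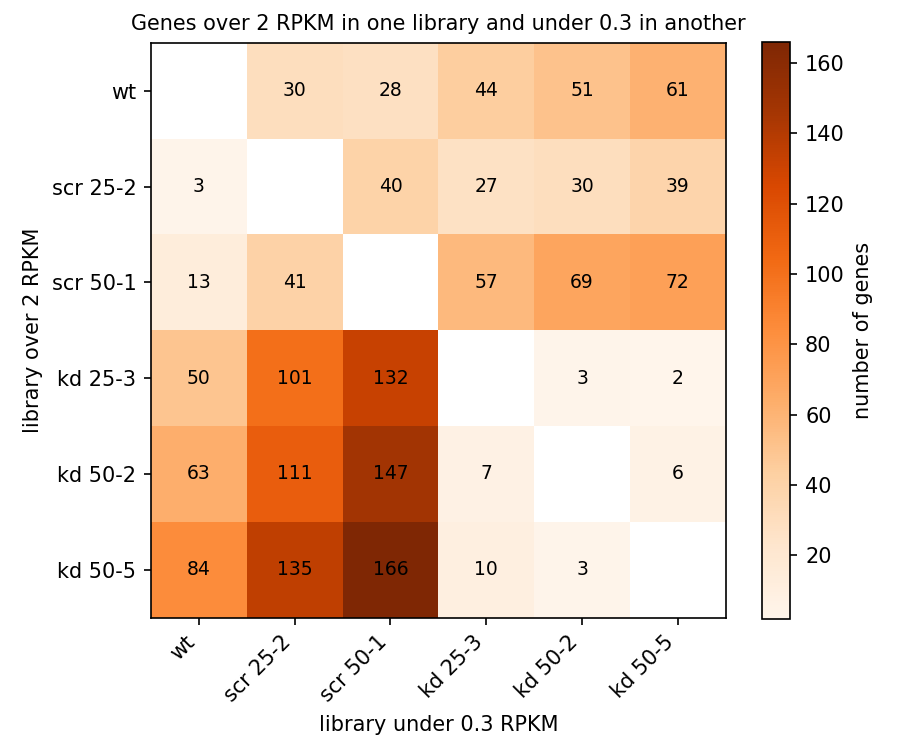
Each cell counts the genes over 2 RPKM in the library of its row and under 0.3 RPKM in the library of its column, for the 6 libraries (kd, knockdown). The 2 scr libraries switch 40 and 41 genes between them, pairs of knockdown libraries 2 to 10, and genes on in knockdown and off in scr libraries number 101 to 166.

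Taking wt in place of scr as the library that is on gave 31 genes that were under 0.3 RPKM in all 3 knockdown libraries. The members were 3 of these, and the other 28 failed the rule in at least 1 scr library. The selection on wt and on failing in scr puts these 28 lower in some scr library, so the following values describe them and compare nothing. Their median was 3.82 RPKM in wt, 0.439 RPKM in scr 25-2 and 2.57 RPKM in scr 50-1, and 9 were under 0.3 RPKM in scr 25-2 and 2 in scr 50-1. Of the 28, 4 were in the list of hepatocyte plasma proteins and 1 in that of xenobiotic and amino acid enzymes. The genes named next were chosen after their values were seen. Ambp, which encodes a plasma protein precursor, had 59.4 RPKM in wt, 0.402 in scr 25-2 and 56.5 in scr 50-1. Fgg, which encodes the gamma chain of fibrinogen, had 8.08, 0.161 and 14.0 RPKM in wt, scr 25-2 and scr 50-1, and Hpn, which encodes the membrane protease hepsin, had 17.6 RPKM in wt and 0.0340 RPKM in scr 25-2. F2, which encodes prothrombin, was lower in scr 50-1 than in scr 25-2, with 3.08 RPKM in wt, 0.619 in scr 25-2 and 0.207 in scr 50-1, and so was the apolipoprotein gene Apoc1, with 57.3, 2.27 and 1.14 RPKM.

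**Figure D5:**
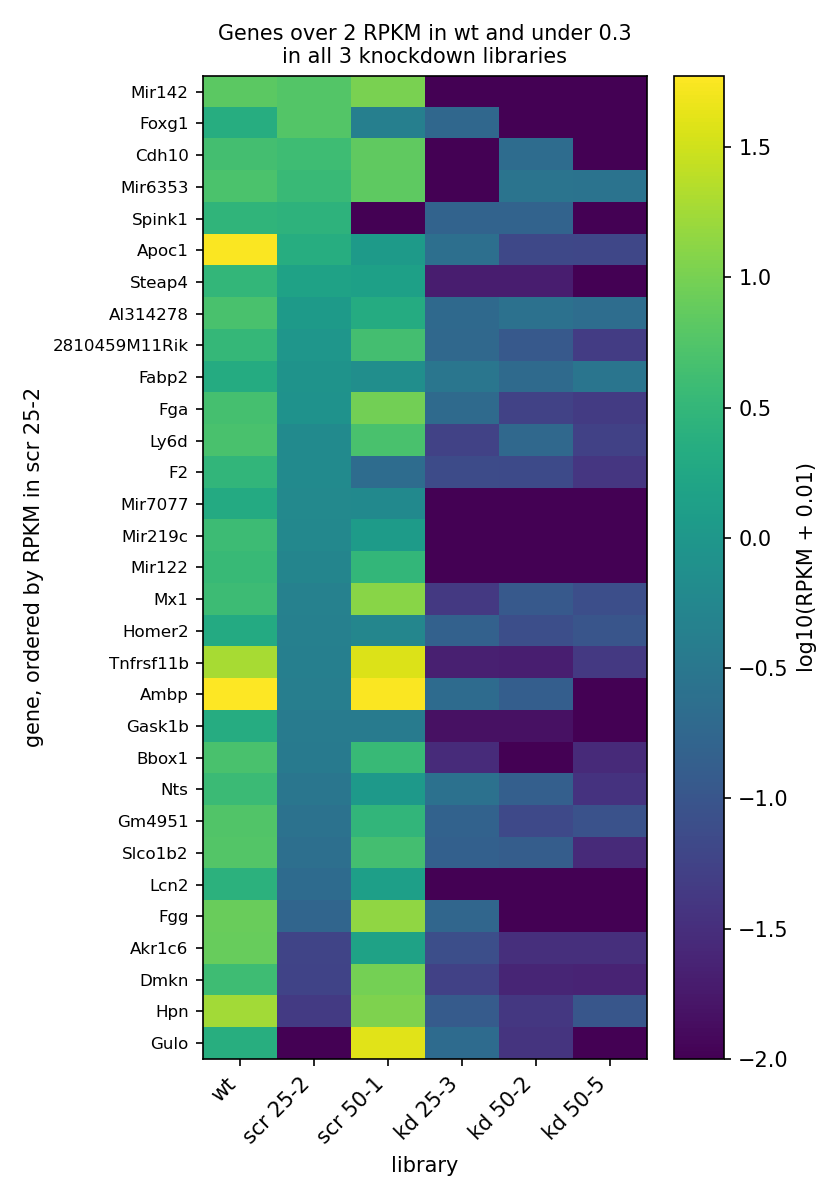
Colour gives log10(RPKM + 0.01) of the 31 genes over 2 RPKM in wt and under 0.3 RPKM in all 3 knockdown libraries, in all 6 libraries (kd, knockdown), ordered by their level in scr 25-2. Mir142, Cdh10 and Mir6353 are bright in wt and both scr libraries, while Ambp, Fgg, Hpn and Gulo are dark in scr 25-2 and bright in scr 50-1.

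The other cadherins and the catenins, which link cadherins to actin, were counted beside the 5.23% of all tested genes called lower and the 5.40% called higher, and so few genes give no reading of their family against that share. Of 22 other Cdh genes, 4 were tested, and 0 were called lower by edgeR (also with DESeq2) and 1 higher. Cdh16, a kidney cadherin, had 0.358 and 0.0212 RPKM in scr, 3.07 RPKM in wt and 10.2, 4.87 and 6.53 RPKM in knockdown libraries (log2 fold change 5.22, FDR 0.0318 by the edgeR quasi-likelihood test, Benjamini-Hochberg adjusted). Cdh2, the N-cadherin of liver cells, had 24.2 and 34.7 RPKM in scr and 39.4, 35.6 and 79.0 RPKM in knockdown libraries and was not called (FDR 0.240). Cdh17, the cadherin of liver and intestine, had 444 and 115 RPKM in scr and 247, 322 and 66.8 RPKM in knockdown libraries and was not called (FDR 0.755). The 18 others were not tested, and among them Cdh1, the E-cadherin, was at 0.169 RPKM or less in the scr and knockdown libraries. Cdh10 was thus on in scr cells beside Cdh2 and Cdh17 at higher levels per length. Of 5 catenin genes tested, Jup, which encodes plakoglobin, was lower (57.4 and 65.6 RPKM in scr, 21.1, 30.1 and 25.6 RPKM in knockdown libraries, FDR 0.0157) and Ctnnb1, which encodes beta-catenin, higher (162 and 105 RPKM in scr, 322, 303 and 234 RPKM in knockdown libraries, FDR 0.0496), while Ctnna1, Ctnnal1 and Ctnnd1 were not called in the edgeR quasi-likelihood test (Benjamini-Hochberg adjusted). The calls of Cdh16 and Jup were lost when any 1 of the 3 knockdown libraries was left out (FDR of up to 0.0646 for Jup), and that of Ctnnb1 also without scr 50-1 (up to 0.164).

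The lists of liver genes and of chromatin genes were counted in the same fit, against 5.23% lower and 5.40% higher over all genes tested. Several of the genes in them were put there because the study's own table of changed genes, made from these libraries, holds them, so the counts are not independent evidence of a direction. Of 31 plasma protein genes of hepatocytes, 13 were lower and 1 higher (median log2 fold change -2.75), with Ttr, Lbp and Mug1 among the lower and Serpina1b the higher one. Of 16 xenobiotic and amino acid enzyme genes, 8 were lower, such as Fmo1 and Bbox1, and 0 higher (median -2.53). Of 40 genes for DNA methylation, H3K9 methylation and Polycomb, Mbd1 and Mbd2 were lower and Suv39h2 higher (median -0.04). The higher calls in these 3 lists were 0, 0 and 0 without knockdown 25-3 or knockdown 50-2, and 2, 0 and 0 without knockdown 50-5. With wt added to the controls, the higher calls among plasma protein genes were also 0. Without knockdown 50-2, the lower calls in these 3 lists were 1, 0 and 0, and without knockdown 25-3 they were 5, 3 and 0. Without knockdown 50-5 they were 5, 4 and 0, and without scr 25-2 they were 18, 11 and 4.

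Since Mir142 is known from blood cells, markers of such cells were read beside it, where 5.23% of all genes tested were lower and 5.40% higher. Of 7 macrophage markers, 4 were tested and by edgeR 2 were lower in knockdown libraries, Mpeg1 and Cd14, and 0 higher. DESeq2 called 2 lower and 1 higher, as did edgeR with wt added to the controls. The summed level of the 7 markers ran from 44.3 to 73.0 RPKM in scr, 37.3 RPKM in wt and 21.9 to 29.9 RPKM in knockdown libraries. The defining markers Adgre1 and Ptprc, the latter encoding the CD45 of blood cells, were at most 0.0433 and 0.160 RPKM in any library, and Ptprc was highest in knockdown 50-5. Of 6 lymphocyte markers, Cd3e and Cd8a were at 0 throughout, and Icos alone was tested and was lower (0.793 and 1.89 RPKM in scr, at most 0.214 RPKM in knockdown libraries). Icos passed the filter of 1 RPKM only through scr 50-1, the library where it was high, so its lower call gives no support. Without scr 50-1 Icos was too low to be tested. The calls of Mpeg1, Cd14 and Icos were each lost without knockdown 50-2 or 50-5, and those of Cd14 and Icos also without 25-3, at an FDR of up to 0.102. The summed lymphocyte markers were 0.841 and 2.06 RPKM in scr and at most 0.317 RPKM in knockdown libraries. Of 8 fibroblast markers, 2 were tested and 1 was higher, and their summed level was 594 and 562 RPKM in scr, 1031 RPKM in wt and 411 to 576 RPKM in knockdown libraries. That higher call was lost without knockdown 25-3 or knockdown 50-2 and with wt added to the controls. Of 6 endothelial markers 0 were tested, with sums of at most 0.529 RPKM in scr and knockdown libraries and 2.95 RPKM in wt. In bulk libraries, fewer cells with a transcript and less of it in each cell cannot be told apart. The part of these marker levels in the values of Mir142 was not tested.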

How the data were processed

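Total RNA of Hepa1-6 cells was depleted of ribosomal RNA and sequenced as single reads. The authors aligned reads to mm10 with TopHat2 and deposited counts per gene, made with HTSeq against the RefSeq GRCm38 annotation (version 0.6.1p1 per the labels). The authors also deposited RPKM values, scaled by the TMM factors of edgeR. Counts and RPKM columns were matched to libraries by name, with 0 left over. Strand and overlap settings of the counting are not given in the sources used here.

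Members were selected on the deposited RPKM. They, the gene lists and the alternatives were chosen with earlier results of these data known, and the cadherin and catenin lists after the members were seen. Counts of the 3 knockdown and 2 scr libraries were tested with edgeR 4.0.16 in R 4.3.3 (quasi-likelihood test, TMM, Benjamini-Hochberg adjustment) among genes over 1 RPKM in at least 1 of them, and called at an FDR under 0.05 and a fold change of at least 1.5. The test was checked on simulated counts. The common biological coefficient of variation was 0.272. Standard errors come from the fold change and its F statistic. Genes were named by rule: the members, the 5 genes nearest outside each limit, of which 1 is not reported here, nor is 1 planned gene list, adjacent genes called and Midn. Other named genes were chosen after their values were seen. Count ratios have exact 95% intervals and zero counts a floor of 3 counts, for counting error only. Gene kinds, sequences and promoters came from RefSeq (25000 of 25078 symbols matched) and host genes from GENCODE. Of 6 genes looked up, Cdh10 and Pid1 had a promoter entry. Alternatives were other limits and scalings, DESeq2 1.42.0, other filters and libraries, and a block.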

Additional observations from a re-analysis of the deposited data

How the results depend on the processing

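The number of members rested on the limits and on the libraries. With the upper limit at 1 RPKM there were 16 genes, and at 5 RPKM 1 (Mir142). With the lower limit at 0.1 RPKM there was 1 (Mir142), and at 0.5 RPKM 10. At least 50 counts in each scr library left 1 (Cdh10), and at most 3 counts in each knockdown library in place of the RPKM limit gave 5, without Cdh10. It remained 3, with the same genes, with unscaled totals, with DESeq2 size factors and with wt also over 2 RPKM. Leaving out 1 library gave 4 to 42 genes, the members among them each time: 42 without scr 25-2, 13 without scr 50-1, 8 without knockdown 25-3 and 5 without knockdown 50-2. All 3 members were on in wt under each of 3 alternatives.

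Of the genes called across the whole table, 605 were lower and 625 higher. DESeq2 called 1155 lower and 1167 higher, and knockdown 25-3 and 50-2 alone gave 138 and 208. Leaving out 1 library gave 42 to 1127 lower and 89 to 1146 higher: 1127 and 1146 without scr 25-2, 93 and 166 without knockdown 25-3, 42 and 89 without knockdown 50-2 and 138 and 208 without knockdown 50-5. The number 25 or 50 of the labels as a replicate block gave 388 lower and 419 higher. This number is not explained as a pairing, and the block left the 2 adjacent genes called. Adjacent genes called lower numbered 4 with DESeq2, which added 1110028F11Rik and Rnf43, and 1 to 3 when 1 library was left out, with 1 (Tspoap1) without knockdown 25-3 or 50-2. Other alternatives left these counts within 1.5 times. Causes were not tested. Depth is a limit for both hairpins, since they rest on at most 22 reads a library.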
